A study of Mus musculus with 9 samples.

Results

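The nuclear-encoded subunits of oxidative phosphorylation were followed in mouse cerebellum and in tumours of a WNT-medulloblastoma model. They were taken from the RNA-seq count table by symbol, as the numbered Nduf genes of the a, b, c, s and v series (1 symbol of the b series was left out), the 4 Sdh genes, the Uqcr genes with Cyc1, the numbered Cox4 to Cox8 genes and all symbols that begin with Atp5. This gave 80 of the 24444 gene symbols in the table, of which 35 fall to complex I, 4 to complex II, 9 to complex III, 15 to complex IV and 17 to complex V. The symbol rule places Ndufa4 with complex I, although its protein is known as a subunit of complex IV, and it takes in Atp5s and Atp5sl, which are not structural subunits of ATP synthase. Enough counts for a test were found for 76 members. Cox6a2, Cox8b and Cox8c were too low, and Ndufs5 was listed at 0 in every library.

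RNA came from 3 groups of 3 libraries. The controls were normal cerebellum from CD1-nude mice, a strain without a thymus and so without T cells. Tumours arose from cells implanted into hosts of that strain, and their GFP-positive regions were dissected. The implanted cells of both tumour groups, EV and MycT58A, carried Blbp-Cre, which is active in neural progenitors, together with the alleles labelled Ctnnb1Ex3flx/flx, Trp53flx/flx and Pik3caE545K +/flx. They differed in what had been added to them, EV in one group (read here as an empty vector) and MycT58A, a Myc whose protein is degraded more slowly, in the other. Ages are not given, nor is it said whether the implanted cells came from 1 donor or several. The study calls the 3 libraries of a group biological replicates without saying that each is a separate animal, so each p-value reflects only how far these libraries spread. In bulk tissue, fewer cells of a type and less RNA per cell cannot be told apart.

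Oxidative phosphorylation is carried out by 5 complexes of the inner mitochondrial membrane. Complex I takes electrons from NADH and complex II takes them from succinate, and both pass them to ubiquinone. Complex III hands them on to cytochrome c, and complex IV passes them to oxygen. Complexes I, III and IV pump protons, and complex V, the ATP synthase, lets the protons flow back through its ring of c subunits and makes ATP. All complexes but complex II also hold subunits encoded by mitochondrial DNA, for which no row of the table was matched, so the catalytic core of complex IV and the membrane core of complex I were not analysed here. Neurons depend strongly on this pathway, and Myc is known to act on genes of mitochondrial biogenesis in many cell types.

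Total counts ranged from 16631523 to 30410089 per library. Levels are given as CPM, counts scaled to the library size after TMM normalisation. Myc read 0.940, 1.59 and 32.0 CPM in the controls, 360, 19.9 and 762 CPM in EV tumours, and 918, 859 and 727 CPM in MycT58A tumours, and its difference between the tumour groups did not pass (1.13 on the log2 scale, SE 1.37, edgeR adjusted p = 0.592). EV replicate 3 thus lay within the range of the MycT58A libraries for Myc, and EV replicate 2 lay below control replicate 3. Markers of granule neurons, the main neurons of the cerebellum, had a median of 426 to 445 CPM in the controls, 1.47 to 6.37 CPM in EV tumours and 3.34 to 6.99 CPM in MycT58A tumours, and 14 of 15 fell in each tumour group. The median of 6 proliferation genes was 0.576 to 11.4 CPM in the controls, with control replicate 3 the highest, 79.0 to 220 CPM in EV tumours and 336 to 402 CPM in MycT58A tumours. Microglia and macrophage markers summed to 200 to 253 CPM in controls, 445 to 678 CPM in EV tumours and 75.8 to 166 CPM in MycT58A tumours, and 5 of 12 fell in MycT58A against EV tumours. Pericyte and fibroblast markers summed to 282 to 361, 2730 to 11906 and 1444 to 1769 CPM in the same order. The part of these shifts in the results that follow was not tested.

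Most subunit genes had log2 fold changes below 0 against cerebellum, called or not, 64 of 76 in EV and 54 of 76 in MycT58A tumours. Over all 15171 genes tested these numbered 7037 and 7658. In EV tumours 31 members fell and 2 rose, which makes 43.4% of the 76 tested members past the threshold (edgeR quasi-likelihood test, adjusted p under 0.05) against 57% of all 15171 genes tested. The members that fell were 40.8% of those tested, where 26.3% of all genes fell, and the members that rose were 2.63%, where 30.7% of all genes rose. The median log2 fold change over members was -0.44, beside 0.14 over all genes. In MycT58A tumours 25 members fell and 4 rose, 38.2% of the tested members against 62.2% of all genes. The share that fell, 32.9%, was close to the 31% of all genes, and the share that rose, 5.26%, was lower than the 31.2% of all genes. The median over members was -0.29 there, beside -0.02 over all genes.

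The tumour groups differed from each other in 3 members, Ndufv1 and Ndufs8, which were higher with MycT58A, and Uqcrb, which was lower. These are 3.95% of the tested members, where 8.3% of all genes passed. In the upward direction 2.63% of members stood against 3.28% of all genes, and in the downward direction 1.32% against 5.02%, so the members were not called more often than other genes. With RLE scaling 1 member rose and 1 fell, and with library size alone 1 rose and 2 fell, a scaling that moved the median of all genes in this comparison from -0.04 to -0.17. None was called when the fit held only those 2 groups or lacked any single MycT58A library, settings under which 34 to 70 of all genes were called. Without EV replicate 3, 12 members were higher and 4 lower, among 3977 genes called. The 2 comparisons against cerebellum share their control libraries. In them 20 members fell in both, 2 rose in both and 36 passed in neither. The matching counts over all genes were not made, so these numbers only describe the members.

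**Figure D1:**
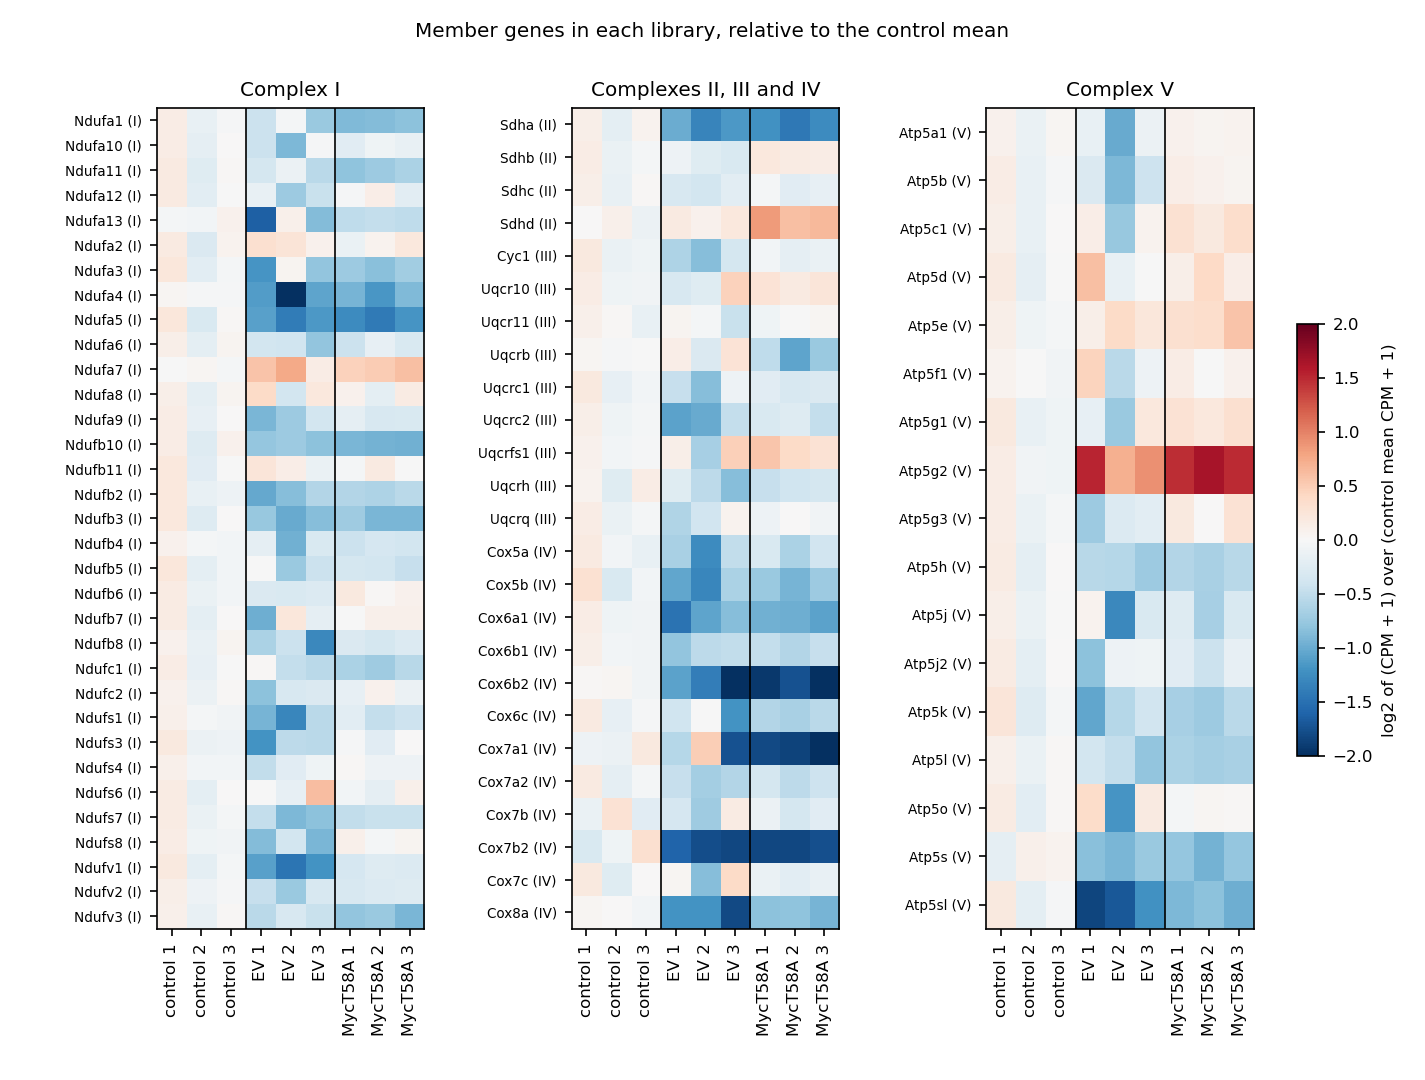
Level of 75 of the 76 tested members in each library (columns, by group), as log2 of (CPM + 1) over (control mean CPM + 1), in blue where below and in red where above the control mean, with the colour scale ending at -2 and 2. Blue rows prevail in both tumour groups, above all in complex IV, while Atp5g2, Ndufa7 and, in MycT58A tumours, Sdhd are red.

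Leaving out a library changed how many members were called. Without control replicate 1, 17 members fell in EV tumours and 16 in MycT58A tumours, and 45.1% and 51.9% of all genes were then called. Without MycT58A replicate 2, 15 fell in MycT58A tumours. The members that rose numbered 1 in EV tumours without any 1 control or without EV replicate 1 or 2, and 2 in MycT58A tumours without any 1 library of those compared. The median log2 fold change over members stayed between -0.49 and -0.34 for EV tumours and between -0.38 and -0.21 for MycT58A tumours under the 12 alternatives run for each. As a share of all counts the members together made up 1.55% ± 0.107 (SD, n = 3) in controls, 1.16% ± 0.124 in EV tumours and 1.30% ± 0.0486 in MycT58A tumours. The highest tumour library, MycT58A replicate 1 at 1.34%, lay under the lowest control at 1.45%.

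In complex I as a whole 15 of 34 tested members fell and 1 rose in EV tumours, and 10 fell and 1 rose in MycT58A tumours. The 44.1% and 29.4% that fell stood beside 26.3% and 31% of all genes. Within complex I, the 7 nuclear core subunits carry the flavin and the iron-sulfur clusters that lead electrons from NADH to ubiquinone. In EV tumours 6 of these 7 fell, 85.7% beside 26.3% of all genes, with a median log2 fold change of -0.73. Without control replicate 1, 3 fell. In MycT58A tumours 1 of 7 fell, Ndufs7, a subunit at the quinone site, at -0.47 (SE 0.17, edgeR adjusted p = 0.0434), and none passed without any 1 of the 6 libraries compared. The 1 that fell makes 14.3% of the core, beside 31% of all genes. The median over the core in MycT58A tumours was -0.29. Between the tumour groups all 7 log2 fold changes were above 0, from 0.21 to 0.95 with a median of 0.53. The adjusted threshold was passed by 2 of them, 28.6% beside the 8.3% of all genes called in this comparison. An unadjusted p of 0.05 was passed by 5 of the 7, and by 4724 of all 15171 genes. Without EV replicate 3, 5 of the 7 passed the adjusted threshold, among 3977 genes called.

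Ndufv1 (chr19:4007384-4012806, minus strand, mm10), the subunit that binds the flavin and takes electrons from NADH, stood at 300.4, 227 and 255 CPM in the controls. It read 122, 93.7 and 114 CPM in EV tumours and 206, 218 and 215 CPM in MycT58A tumours. No library of one group overlapped another group, and the MycT58A libraries lay between the other groups. It fell 2.38-fold in EV tumours (log2 fold change -1.25, SE 0.18, edgeR adjusted p = 0.000606). In MycT58A tumours its difference from control was -0.29 (SE 0.18, adjusted p = 0.178, edgeR). It was 1.94-fold higher in MycT58A than in EV tumours (log2 fold change 0.95, SE 0.18, edgeR adjusted p = 0.0227). Over the 12 alternatives its adjusted p ranged from 8.37e-06 to 0.109, and 8 kept the call, which ended without any 1 MycT58A library or with only those 2 groups in the fit.

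Ndufs8 (chr19:3908863-3912774, minus strand) carries the iron-sulfur clusters near the end of the chain to ubiquinone. Its levels were 103, 87.6 and 88.1 CPM in controls, 50.3, 72.0 and 48.9 CPM in EV tumours, and 100.1, 90.5 and 96.6 CPM in MycT58A tumours. The EV libraries were all below the others, while control and MycT58A libraries overlapped. It fell by 0.70 in EV tumours (SE 0.19, edgeR adjusted p = 0.0137), a call that ended without control replicate 1 and with only the 2 groups compared in the fit. It was higher by 0.75 in MycT58A than in EV tumours (SE 0.19, edgeR adjusted p = 0.0498). The latter passed under 4 of 12 alternatives. It was lost with RLE scaling, with library size alone, without the low-count filter and with only those 2 groups in the fit. It was also lost without EV replicate 1 and without any 1 MycT58A library.

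The other core subunits had smaller differences between the tumour groups. Ndufs1, the largest subunit of the NADH-oxidising arm, fell by 0.90 in EV tumours (SE 0.21, edgeR adjusted p = 0.00722), from 195, 178 and 173 CPM to 94.8, 72.8 and 125 CPM, and read 157, 130 and 136 CPM in MycT58A tumours. Ndufs3, of the quinone-facing arm, fell by 0.73 in EV tumours (SE 0.22, edgeR adjusted p = 0.0201), and its difference between the tumour groups was 0.65 (SE 0.22, adjusted p = 0.0891). It has 1 near-identical annotated copy, so its counts are uncertain. Ndufv2, which holds the cluster beside the flavin, fell by 0.50 in EV tumours (SE 0.17, edgeR adjusted p = 0.0311).

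The E-box CACGTG, the core sequence bound by Myc and Max, was searched for on both strands, along with 3 other motifs described further on, in RefSeq promoters (GRCm38.p6) of 250 bases before to 50 after the start, which are listed for 65 members. Of the 3 members that differed between the tumour groups, Ndufv1 has an E-box, and the stretch that holds it is shown for that reason, with the motif in capitals. It covers chr19:4012846-4012955 on the minus strand, 200 to 91 bases before the start, and overlaps no annotated exon of the gene.
Ndufv1: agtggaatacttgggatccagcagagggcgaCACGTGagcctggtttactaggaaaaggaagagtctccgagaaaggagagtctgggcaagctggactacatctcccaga
The motif begins 169 bases before the start. The E-box was present for 5 of the 65 members (7.69%), Atp5g1, Atp5g3, Atp5l, Ndufa7 and Ndufv1, against 7.15% of all 32851 listed promoters and 11.3% of tested genes with a listed promoter. It was therefore no more common among the members. A match is a description of the sequence and shows no binding.

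The accessory subunits of complex I surround the core and serve its assembly and stability. Of 27 tested, 9 fell and 1 rose in each tumour group, and the 33.3% that fell stood beside 26.3% and 31% of all genes. The medians over these subunits were -0.43 in EV and -0.31 in MycT58A tumours. None was called between the tumour groups by edgeR. In that test 3 of the 27 had an unadjusted p under 0.05, beside 4724 of all 15171 genes. DESeq2 called 1 higher and 1 lower, and limma-voom called none. Without control replicate 1, 5 fell in EV and 6 in MycT58A tumours. Ndufa1, Ndufa11 and Ndufc1, 3 small subunits of the membrane arm, passed in MycT58A tumours alone, with -0.87, -0.73 and -0.65 there, but differed from EV tumours by -0.49, -0.40 and -0.34 (edgeR adjusted p = 0.149, 0.18 and 0.282).

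Ndufa5, an accessory subunit of the peripheral arm, showed the same fall in both tumour groups. It read 109.96, 75.8 and 94.8 CPM in controls, 43.3, 34.8 and 41.8 CPM in EV tumours and 38.7, 34.5 and 40.9 CPM in MycT58A tumours. Every tumour library was below every control, and the tumour groups overlapped. The log2 fold changes were -1.23 (SE 0.20, edgeR adjusted p = 0.000977) and -1.30 (SE 0.20, edgeR adjusted p = 0.000603), and both passed under all 12 alternatives. Ndufa4, now placed in complex IV, fell 2.62-fold in EV tumours (log2 fold change -1.39, SE 0.30, edgeR adjusted p = 0.00453), from 253, 242 and 242 CPM to 113, 50.8 and 118 CPM. It read 129, 109 and 133 CPM in MycT58A tumours, lower by 0.99 (SE 0.30, edgeR adjusted p = 0.0178). That second call ended without any 1 control and without MycT58A replicate 1 or 2. Ndufb10, of the membrane arm, fell from 168, 127 and 161 CPM to 80.2, 78.1 and 77.9 CPM in MycT58A tumours (log2 fold change -0.95, SE 0.16, edgeR adjusted p = 0.00107), with 88.9, 92.0 and 85.3 CPM in EV tumours.

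One accessory subunit went the other way. Ndufa7 read 63.9, 66.1 and 62.5 CPM in controls, 95.9, 109.7 and 70.9 CPM in EV tumours and 88.5, 91.9 and 98.1 CPM in MycT58A tumours. All tumour libraries were above all controls. It rose by 0.52 (SE 0.19, edgeR adjusted p = 0.0392) and 0.53 (SE 0.19, edgeR adjusted p = 0.0331). Both calls ended without any 1 control. The EV call also ended without EV replicate 1 or 2 and with only the 2 groups compared in the fit. The MycT58A call also ended without any 1 MycT58A library and with library size alone. The remaining accessory subunits that did not pass in either comparison, among them Ndufa2, Ndufa8, Ndufb11 and Ndufs6, had log2 fold changes between -0.76 and 0.23.

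**Figure D2:**
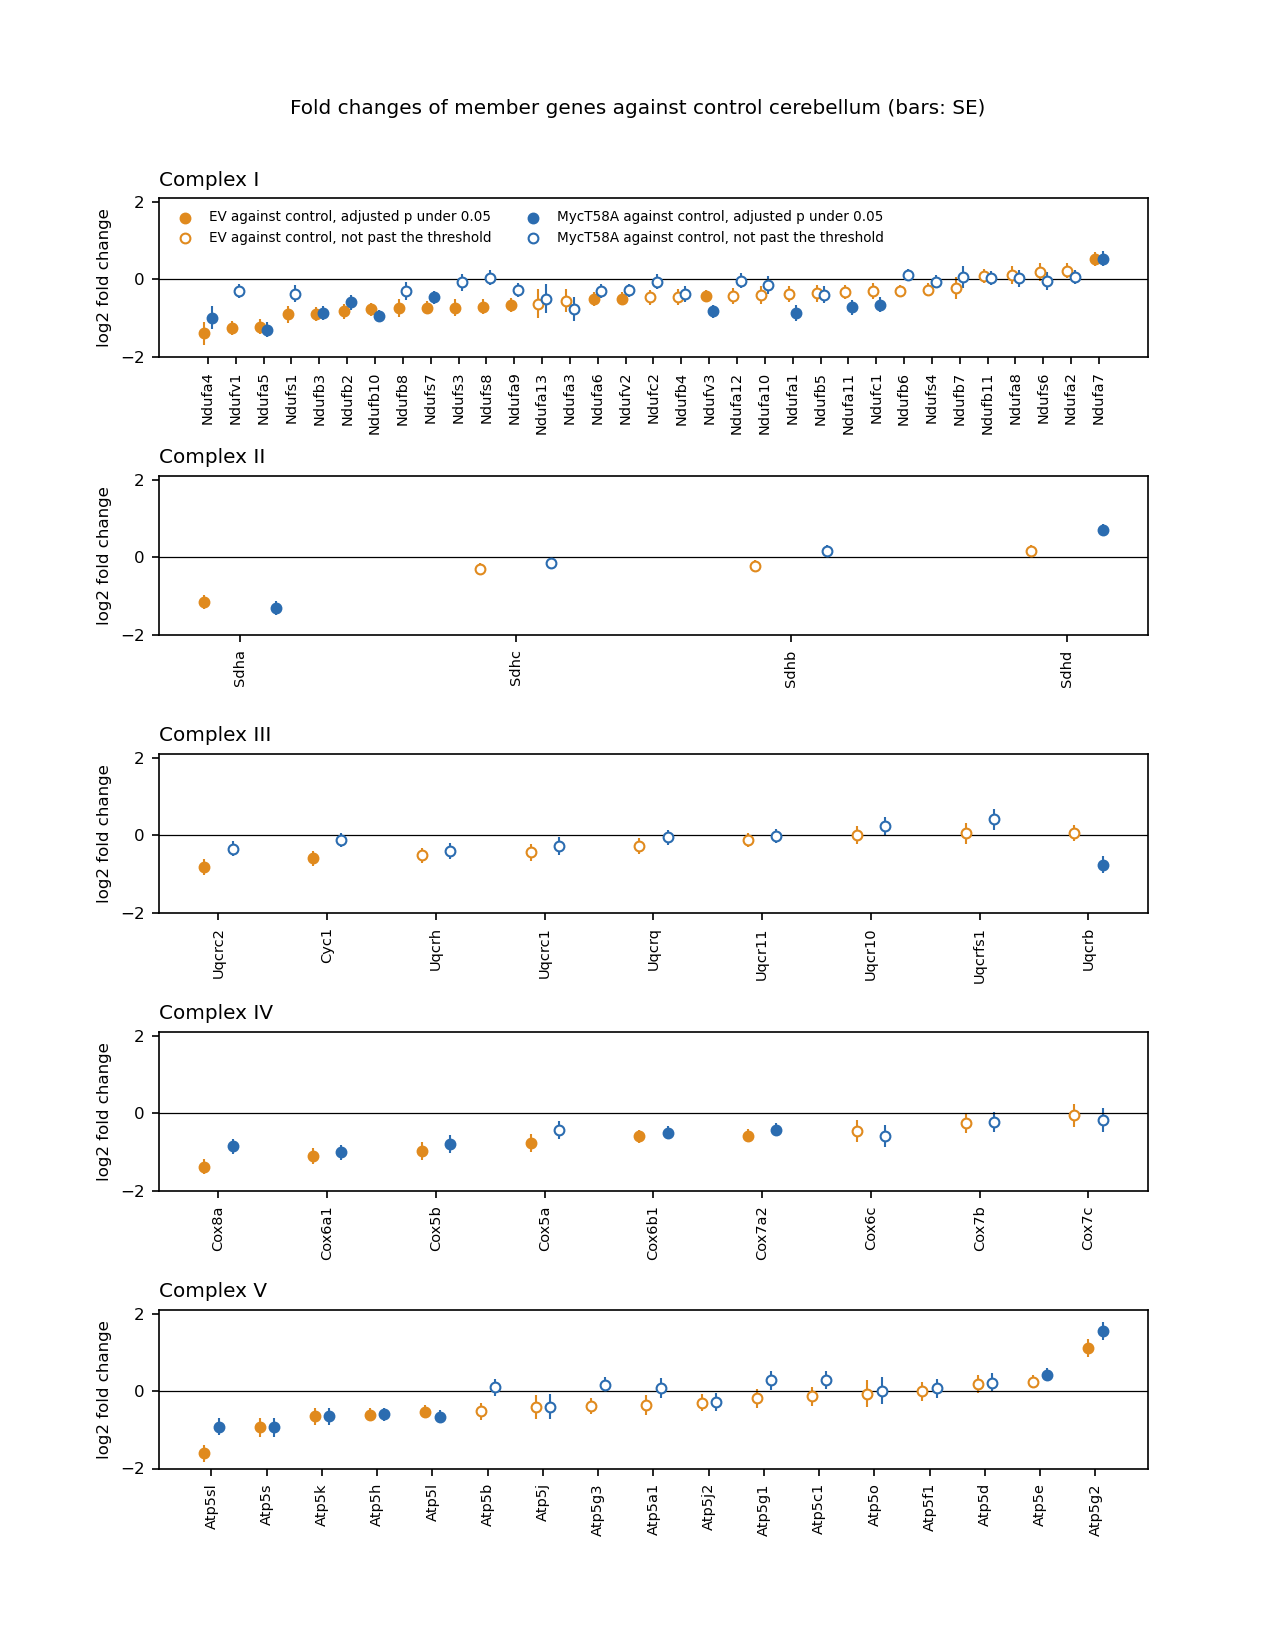
Log2 fold changes (vertical axis) of 72 tested members against control cerebellum, by complex and in the order of the EV value, for EV tumours (orange) and MycT58A tumours (blue), with bars for the SE and filled points for edgeR adjusted p under 0.05. Cox6b2, Cox7a1 and Cox7b2, under 8 CPM in controls, are among the members not drawn, complex I runs from -1.39 for Ndufa4 to 0.52 for Ndufa7 in EV tumours, and Atp5g2 stands highest in complex V in both groups.

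Complex II is the only complex built wholly from nuclear genes, and its 4 subunits did not move together. Their median log2 fold change was -0.26 in EV tumours and 0.02 in MycT58A tumours, and the latter turned to -0.04 with RLE scaling and -0.07 with library size alone. Sdha (chr13:74322254-74350280, minus strand), the flavoprotein that oxidises succinate, read 741, 597 and 718 CPM in controls. It read 343, 275 and 309 CPM in EV tumours and 296, 253 and 285 CPM in MycT58A tumours. All tumour libraries were below all controls. It fell 2.22-fold in EV tumours (log2 fold change -1.15, SE 0.18, edgeR adjusted p = 0.000944). In MycT58A tumours it fell 2.46-fold (-1.30, SE 0.18, edgeR adjusted p = 0.000423), and both calls passed under all 12 alternatives. An annotated transcript, Gm16125, overlaps Sdha, and the strand setting of the counts is not given in the sources used here.

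Sdhd (chr9:50596357-50603812, minus strand), a membrane anchor that helps to form the ubiquinone site, went up instead. It read 92.6, 98.7 and 85.2 CPM in controls, 104, 97.6 and 106 CPM in EV tumours, and 168, 140.4 and 145 CPM in MycT58A tumours. The MycT58A libraries were above all others, and the controls and EV tumours overlapped. It rose by 0.71 in MycT58A tumours (SE 0.15, edgeR adjusted p = 0.00341), under all 12 alternatives, and its difference from control in EV tumours was 0.16 (SE 0.15, adjusted p = 0.392). Between the tumour groups the difference was 0.56 (SE 0.15, edgeR adjusted p = 0.0549), which passed with DESeq2, with limma-voom and without EV replicate 2 or 3. Sdhb, the iron-sulfur subunit, did not pass in any comparison. It read 144, 119 and 127 CPM in controls, 120.4, 109 and 105 CPM in EV tumours and 150.2, 145 and 144 CPM in MycT58A tumours, and was called higher with MycT58A than with EV with DESeq2 and not with the other tools. Sdhc, the other membrane anchor, read 149, 123 and 139 CPM in controls, 109.7, 106 and 118 CPM in EV tumours, and 133, 117 and 122 CPM in MycT58A tumours. It did not pass in any edgeR comparison and was lower in EV tumours by DESeq2 alone.

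Per kilobase of exon, Sdha was the most abundant of the 4 transcripts in controls, at 166 CPM per kb against 74.9 for Sdhd, 58.0 for Sdhb and 42.1 for Sdhc. In MycT58A tumours Sdhd led with 123 CPM per kb, ahead of Sdha with 67.4 and Sdhb with 65.4. In EV tumours Sdhd stood at 83.5 and Sdha at 74.8 CPM per kb. Annotated exon lengths may not be those of the transcripts present in the tissue.

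The promoters of Sdha and Sdhd are shown since these genes were called in opposite directions in MycT58A tumours. Both hold the motif GCGCANGCG, a form of the NRF1 site with any base in the middle that was added after the data were seen, NRF1 being a factor of mitochondrial biogenesis, and Sdhd also holds the ETS motif CCGGAAG, here as CTTCCGG on the other strand. Matches are in capitals. The Sdha stretch is chr13:74350281-74350380 and the Sdhd stretch chr9:50603850-50603957, both on the minus strand (RefSeq, GRCm38.p6) and outside the annotated exons of these genes.
Sdha: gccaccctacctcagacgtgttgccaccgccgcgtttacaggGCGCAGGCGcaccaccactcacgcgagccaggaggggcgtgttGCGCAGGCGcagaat
Sdhd: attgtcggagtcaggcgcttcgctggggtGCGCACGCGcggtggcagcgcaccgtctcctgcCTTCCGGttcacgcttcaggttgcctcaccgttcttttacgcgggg
The matches in Sdha begin 98 and 55 bases before the start, and those in Sdhd 79 bases before it for the NRF1 form and 46 bases before it for the ETS motif. The 2 genes share the looser NRF1 form, and their calls in MycT58A tumours differ in direction, while Sdhd did not pass in EV tumours. The part of the motif in these values was not tested.

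Of the 9 members of complex III 2 fell in EV tumours, 22.2% beside the 26.3% of all genes that fell, and 1 of these remained past the threshold without any 1 control library. Uqcrc2, a core protein on the matrix side, read 349, 301 and 310 CPM in controls, 151, 159 and 230.1 CPM in EV tumours and 258, 267 and 231 CPM in MycT58A tumours. All tumour libraries were below the controls, and EV replicate 3 was close to the lowest MycT58A library. It fell by 0.83 in EV tumours (SE 0.20, edgeR adjusted p = 0.00845), and its difference from control in MycT58A tumours was -0.35 (SE 0.20, adjusted p = 0.167). Cyc1, cytochrome c1, which passes electrons to cytochrome c, fell by 0.60 in EV tumours (SE 0.18, edgeR adjusted p = 0.0223), from 245, 196 and 202 CPM to 139, 119 and 167 CPM. That call ended without any 1 control, without the low-count filter and with only the 2 groups compared in the fit. Cyc1 read 206, 189 and 195 CPM in MycT58A tumours, a difference of -0.12 from control (SE 0.18, adjusted p = 0.583).

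Uqcrb (chr13:66900617-66905378, minus strand) lies close to the ubiquinone site of complex III. It was the only member that the main edgeR fit called lower in MycT58A than in EV tumours. It read 89.6, 85.9 and 87.0 CPM in controls, 95.9, 71.1 and 106 CPM in EV tumours, and 61.3, 41.6 and 52.2 CPM in MycT58A tumours. The MycT58A libraries were below all others, and controls fell inside the EV range. It fell by 0.76 against control (SE 0.21, edgeR adjusted p = 0.0124), a call that ended without MycT58A replicate 2. Against EV tumours the log2 fold change was -0.81 (SE 0.21, edgeR adjusted p = 0.0497), a call that passed under 6 of 12 alternatives. That call ended without the low-count filter and with only those 2 groups in the fit. It also ended without EV replicate 1 and without any 1 MycT58A library. Uqcrb has 3 near-identical annotated copies and an overlapping gene, so its counts are uncertain. Uqcrfs1, the Rieske iron-sulfur protein, read 149, 136 and 138 CPM in controls, 153, 88.5 and 197 CPM in EV tumours and 207, 185 and 173 CPM in MycT58A tumours, and did not pass.

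Complex IV was the complex with the lowest medians in both tumour groups. Of its 12 tested members 8 fell and none rose in each tumour group, 66.7% beside the 26.3% and 31% of all genes that fell. The medians were -0.68 in EV and -0.70 in MycT58A tumours. Cox7b2 passed the filter on low counts only through the controls and so could only be lower; without it 7 of 11 fell in each tumour group, with medians of -0.60 and -0.59. Without control replicate 1, 5 fell in each tumour group, and 5 fell in MycT58A tumours without MycT58A replicate 2. Between the tumour groups none passed by edgeR, and 1 was lower by DESeq2. By edgeR 2 of the 12 had an unadjusted p under 0.05, beside 4724 of all 15171 genes. The complex made up 0.195% ± 0.0128 (SD, n = 3) of all counts in controls, 0.117% ± 0.00774 in EV tumours and 0.118% ± 0.00737 in MycT58A tumours. The highest tumour library (0.124%) was under the lowest control (0.185%).

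Cox8a (chr19:7215153-7217616, minus strand), a small subunit that spans the membrane, read 334, 328 and 313 CPM in controls. It read 142, 141 and 92.1 CPM in EV tumours and 185, 185 and 169 CPM in MycT58A tumours, and no groups overlapped. It fell 2.60-fold in EV tumours (log2 fold change -1.38, SE 0.20, edgeR adjusted p = 0.000631). The fall was 1.81-fold with MycT58A (-0.86, SE 0.20, edgeR adjusted p = 0.00547). The difference between the tumour groups was 0.53 (SE 0.20, edgeR adjusted p = 0.117). Cox6a1, the widely expressed form of subunit VIa, read 344, 290.4 and 295 CPM in controls, 111, 149 and 171 CPM in EV tumours and 158, 157 and 146 CPM in MycT58A tumours. It fell by 1.11 (SE 0.20, edgeR adjusted p = 0.00174) and by 1.01 (SE 0.20, edgeR adjusted p = 0.00228).

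Other widely expressed subunits were lower by less. Cox5b fell by 0.97 and 0.80 (edgeR adjusted p = 0.00755 and 0.0156), Cox6b1 by 0.60 and 0.50 (0.0125 and 0.0234) and Cox7a2 by 0.58 and 0.43 (0.0154 and 0.0455). The Cox6b1 and Cox7a2 calls ended without control replicate 1 in both tumour groups. In MycT58A tumours both ended without any 1 library of those compared and without the low-count filter. In EV tumours both ended with only the 2 groups compared in the fit. The Cox7a2 call in EV tumours ended without control replicate 3 and without the filter as well. Cox5a, which binds near Cox5b on the matrix side, fell in EV tumours by 0.77 (SE 0.23, edgeR adjusted p = 0.0198), and its value in MycT58A tumours was -0.44 (SE 0.23, adjusted p = 0.125). Cox6c, Cox7b and Cox7c did not pass in any comparison, with values from -0.59 to -0.06 against control. Their EV libraries spread widely, Cox6c from 99.3 to 226 CPM and Cox7b from 90.3 to 167 CPM.

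Several subunits of complex IV have tissue-restricted isoforms. Cox7a1, the heart and skeletal muscle form of subunit VIIa, read 4.05, 3.99 and 5.18 CPM in controls, 2.64, 6.63 and 0.624 CPM in EV tumours, and 0.540, 0.497 and 0.256 CPM in MycT58A tumours. The EV libraries spanned the control range, while the MycT58A libraries lay below all others. It fell 10.1-fold in MycT58A tumours (log2 fold change -3.33, SE 0.79, edgeR adjusted p = 0.0059), and the difference from EV tumours, -2.92 (SE 0.78), missed the threshold (edgeR adjusted p = 0.0535). Striated muscle markers summed to 9.53 to 12.5 CPM in controls, 13.7 to 24.5 CPM in EV tumours and 4.31 to 9.12 CPM in MycT58A tumours. Of the 7 tested, 1 rose and 1 fell in EV tumours and 3 fell in MycT58A tumours. Myh1, Myh2 and Myh4, of fast muscle fibres, were at 0 in all controls. The part of muscle cells in the Cox7a1 values was not tested. Cox6a2 and Cox8b, the muscle forms of their subunits, had 5 and 27 counts over the controls, 9 and 8 over EV tumours and 26 and 3 over MycT58A tumours.

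The forms known from testis were low as well. Cox6b2 read 5.93, 5.98 and 5.51 CPM in controls, 2.23, 1.61 and 0.340 CPM in EV tumours and 0.792, 1.03 and 0.639 CPM in MycT58A tumours, and every tumour library was below the controls. It fell 4.12-fold (log2 fold change -2.04, SE 0.60, edgeR adjusted p = 0.0181) and 7.03-fold (-2.81, SE 0.62, edgeR adjusted p = 0.00414). The first call ended without control replicate 2. Cox7b2 read 1.88, 2.35 and 3.41 CPM in controls, from 172 counts in all, against 6 counts over EV tumours and 1 over MycT58A tumours. The ratio of control to MycT58A tumours was 200 with an exact 95% interval of 35.3 to 7927, which covers counting error only. Cox8c had 4 counts, all in EV tumours. Of 7 germ cell markers Tnp1 was at 0 in every library and 2 could be tested, of which Sycp1 fell in both tumour groups and Sycp3 in MycT58A tumours.

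**Figure D3:**
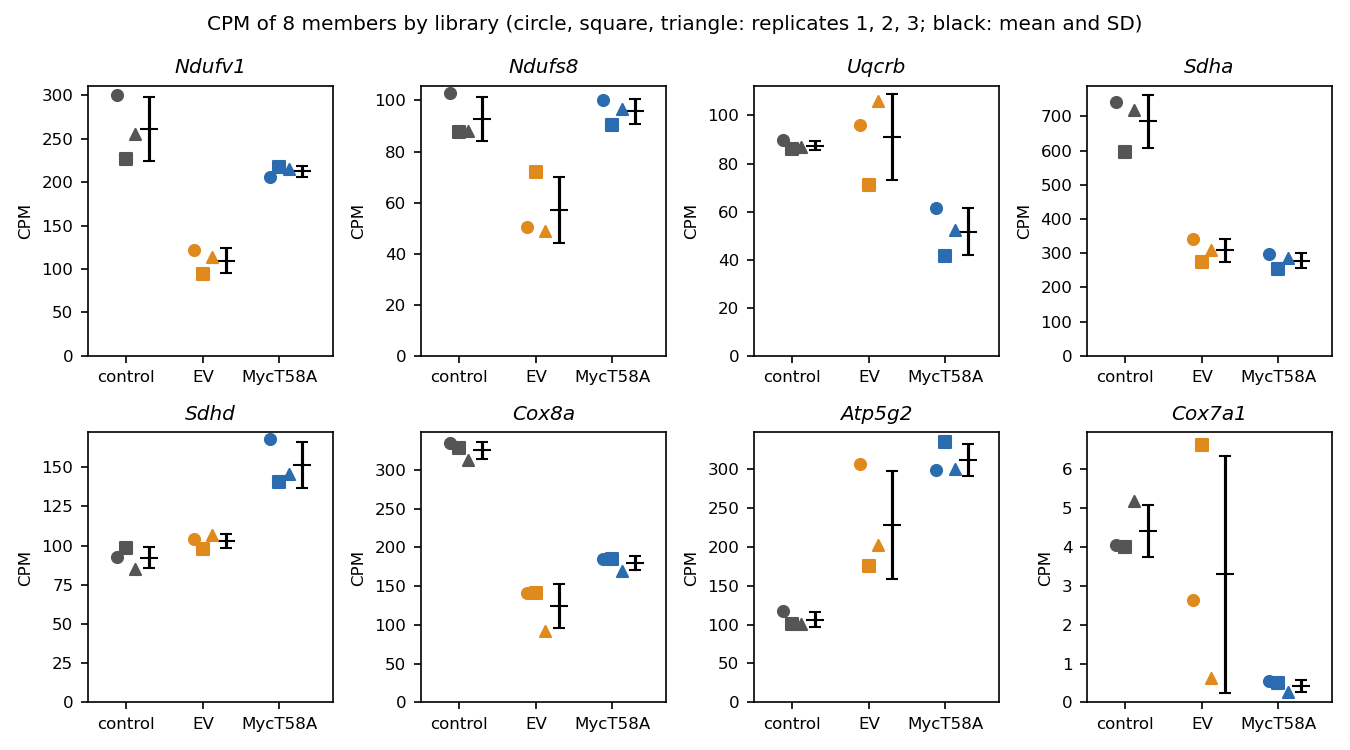
CPM (vertical axes, from 0) of 8 members in each library, by group, with circles, squares and triangles for replicates 1, 2 and 3 and black bars for the mean and SD of 3 libraries. Ndufv1 and Ndufs8 are lowest in EV tumours, Uqcrb and Cox7a1 are lowest in MycT58A tumours, Sdha and Cox8a are lower and Atp5g2 is higher in both tumour groups, and Sdhd is highest in MycT58A tumours.

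The members of complex V are given by the part of the enzyme they build, and these parts were not tested against each other. The catalytic head and central stalk have 5 genes (Atp5a1 and Atp5b for the alpha and beta subunits, Atp5c1, Atp5d and Atp5e). In EV tumours 0 of them were called by edgeR, and 1 was lower by both DESeq2 and limma-voom. By edgeR 1 of the 5 had an unadjusted p under 0.05 there, beside 9470 of all 15171 genes. In MycT58A tumours 1 rose by edgeR. Atp5b, the catalytic beta subunit, read 2343, 1903 and 2067 CPM in controls, 1716, 1123 and 1574 CPM in EV tumours and 2302, 2239 and 2194 CPM in MycT58A tumours. EV libraries were below all others, but its differences of -0.52 from control and 0.61 between the tumour groups had edgeR adjusted p of 0.0729 and 0.105. Atp5e, the small epsilon subunit, rose by 0.42 in MycT58A tumours (SE 0.16, edgeR adjusted p = 0.0462), from 135, 116 and 121 CPM to 155, 158 and 184 CPM. Its call is close to the threshold, and with RLE scaling or library size alone 1 member of complex V rose in place of 2. EV replicate 2 was the lowest library for Atp5a1, Atp5b and Atp5c1, at 771, 1123 and 190.2 CPM.

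Of the 4 genes of the peripheral stalk, which holds the head in place, Atp5h fell in both tumour groups. It read 396, 309 and 354 CPM in controls, 240.2, 239 and 213 CPM in EV tumours and 235, 225 and 239.7 CPM in MycT58A tumours. All tumour libraries lay below the controls, with log2 fold changes of -0.62 and -0.60 (SE 0.16, edgeR adjusted p = 0.0123 in both). The second call ended without control replicate 1 and without MycT58A replicate 2, and Atp5h has 3 near-identical annotated copies. Atp5f1, Atp5j and Atp5o did not pass, and their EV libraries ranged from 218 to 431, 69.3 to 179 and 134 to 392 CPM. Of the 3 membrane accessory subunits, which join the enzyme into dimers, Atp5k fell by 0.65 in both tumour groups (edgeR adjusted p = 0.0312 and 0.0276) and Atp5l by 0.54 and 0.66 (0.0246 and 0.00893), and Atp5j2 did not pass. Atp5k has 1 and Atp5l has 9 near-identical annotated copies. The Atp5k call in MycT58A tumours ended without control replicate 1 or 3, without any 1 MycT58A library and without the low-count filter.

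The 3 genes of the c ring encode the same mature protein with different import sequences. Atp5g2 (chr15:102662864-102672352, minus strand) read 118, 101 and 100.4 CPM in controls, 307, 175 and 202 CPM in EV tumours and 299, 335 and 299.8 CPM in MycT58A tumours. Every tumour library was above every control, and EV replicate 1 lay within the MycT58A range. It rose 2.14-fold in EV tumours (log2 fold change 1.10, SE 0.23, edgeR adjusted p = 0.0039). In MycT58A tumours it rose 2.93-fold (1.55, SE 0.23, edgeR adjusted p = 0.000603). Both calls passed under all 12 alternatives. The difference between the tumour groups was 0.45 (SE 0.23, edgeR adjusted p = 0.214). Atp5g1 read 146, 115 and 120.1 CPM in controls, 114, 75.3 and 147 CPM in EV tumours and 155, 148 and 159 CPM in MycT58A tumours. Atp5g3 read 388, 318 and 341 CPM in controls, 210.2, 289.5 and 302 CPM in EV tumours and 401, 351 and 425 CPM in MycT58A tumours. Neither passed in any comparison.

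Per kilobase of exon, Atp5g2 supplied 25.5% ± 0.685 (SD, n = 3) of the c subunit transcripts in controls, 47.9% ± 10.95 in EV tumours and 46.8% ± 3.76 in MycT58A tumours. Atp5g3 gave 64.2%, 44.1% and 45.3% and Atp5g1 gave 10.3%, 8.02% and 7.89% in the same order. These shares rest on annotated exon lengths of 4.912 kb for Atp5g1, 1.675 kb for Atp5g2 and 2.181 kb for Atp5g3. Such lengths may not be those of the transcripts present in the tissue. In CPM, without division by length, Atp5g1 (mean 127) stood above Atp5g2 (mean 106) in controls. The sum of the 3 genes was 249 ± 25.4 CPM per kb in controls, 281 ± 25.9 in EV tumours and 397 ± 8.08 in MycT58A tumours. The MycT58A libraries, from 391 to 406 CPM per kb, were above all others, and the controls (229.5 to 278) overlapped the EV libraries (253 to 303).

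**Figure D4:**
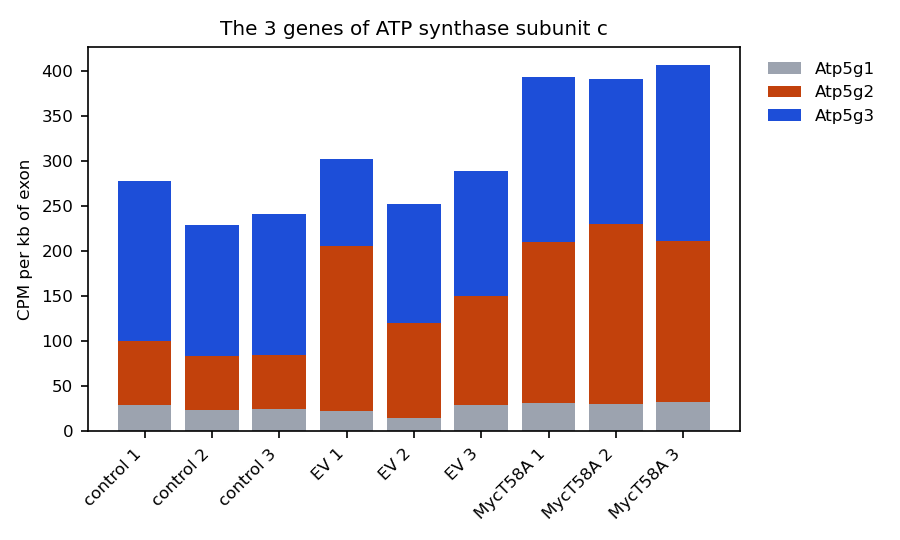
CPM per kb of exon (vertical axis, from 0) of Atp5g1, Atp5g2 and Atp5g3, stacked, in each library. The Atp5g2 segment is larger in all tumour libraries than in the controls, and the stacks of the MycT58A libraries, at 391 to 406, are the tallest.

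The Atp5g2 promoter holds the NRF1 motif GCGCATGCG on both strands, in overlapping matches that begin 42 and 41 bases before the start, and is shown as 1 of 8 member promoters with that motif and the only one of a gene that rose in both tumour groups. The 30 bases are chr15:102671070-102671099, minus strand (RefSeq, GRCm38.p6), with the matches in capitals, and lie in an exon of another annotated transcript of the gene.
Atp5g2: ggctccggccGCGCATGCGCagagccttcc
Across the 65 members GCGCATGCG was found in 12.3%, against 1.75% of all listed promoters and 3.72% of tested genes. Of the 8 genes, Atp5k, Atp5l and Cox6a1 fell in both tumour groups, Ndufa11 fell in MycT58A tumours, and Ndufa8, Uqcr11 and Uqcrc1 did not pass. The looser form GCGCANGCG, which includes every GCGCATGCG match, was found in 20 members (30.8%), against 6.25% and 13.8%. The YY1 motif AANATGGCG was found in 10 members (15.4%), against 2.38% and 5.21%, and the ETS motif CCGGAAG in 16 (24.6%), against 8.86% and 17.7%. Among members that fell in EV tumours 3 of 26 with a listed promoter held GCGCATGCG, and among those that did not pass 4 of 35 did.

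Atp5s and Atp5sl, which bear the family name without being structural subunits, also fell. Atp5sl read 59.1, 44.9 and 50.9 CPM in controls, 13.8, 15.2 and 21.7 CPM in EV tumours and 27.3, 28.9 and 25.7 CPM in MycT58A tumours. No groups overlapped. It fell 3.06-fold in EV tumours (log2 fold change -1.61, SE 0.23, edgeR adjusted p = 0.000534). In MycT58A tumours it fell 1.89-fold (-0.92, SE 0.22, edgeR adjusted p = 0.00673). Atp5s fell by 0.94 in both (SE 0.25, edgeR adjusted p = 0.0115 and 0.00999), from 8.99, 11.1 and 10.8 CPM to 5.34, 5.01 and 5.73 CPM and to 5.61, 4.90 and 5.58 CPM. Its call in EV tumours ended without control replicate 2 or 3. In all, 5 members of complex V fell in each tumour group, 29.4% of the 17 beside 26.3% and 31% of all genes. Without control replicate 1 the members that fell were 2 in EV and 3 in MycT58A tumours. The median over the 17 genes was -0.37 in EV tumours. In MycT58A tumours it was 0.07, which turned to -0.02 with library size alone.

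The complexes can be set side by side by the median over their members in each library, as log2 CPM minus the control mean. The core of complex I stood at -0.88, -0.74 and -0.54 in EV tumours and at -0.21, -0.25 and -0.25 in MycT58A tumours, so the tumour groups did not overlap. For its accessory subunits the tumour groups lay close without overlap, at -0.43, -0.37 and -0.44 against -0.35, -0.34 and -0.30. Complex IV without Cox7b2, which entered only through its level in controls, stood at -0.71, -0.87 and -0.61 in EV tumours and at -0.58, -0.64 and -0.53 in MycT58A tumours. The core of complex I was thus lower than complex IV in EV replicate 1 and higher in the other tumour libraries. Complex II stood at -0.21, -0.30 and -0.26 in EV tumours and at 0.09, -0.03 and -0.01 in MycT58A tumours. Complex V stood at -0.15, -0.56 and -0.12 in EV tumours and at 0.09, 0.01 and 0.07 in MycT58A tumours, where the controls ranged from -0.14 to 0.16. For complexes II and V the tumour groups thus did not overlap either, while for complexes III and IV they did. Complex III read -0.33, -0.52 and -0.09 in EV tumours and -0.10, -0.17 and -0.13 in MycT58A tumours. Medians over genes are descriptions and were not tested, and the genes of a complex are not replicates.

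**Figure D5:**
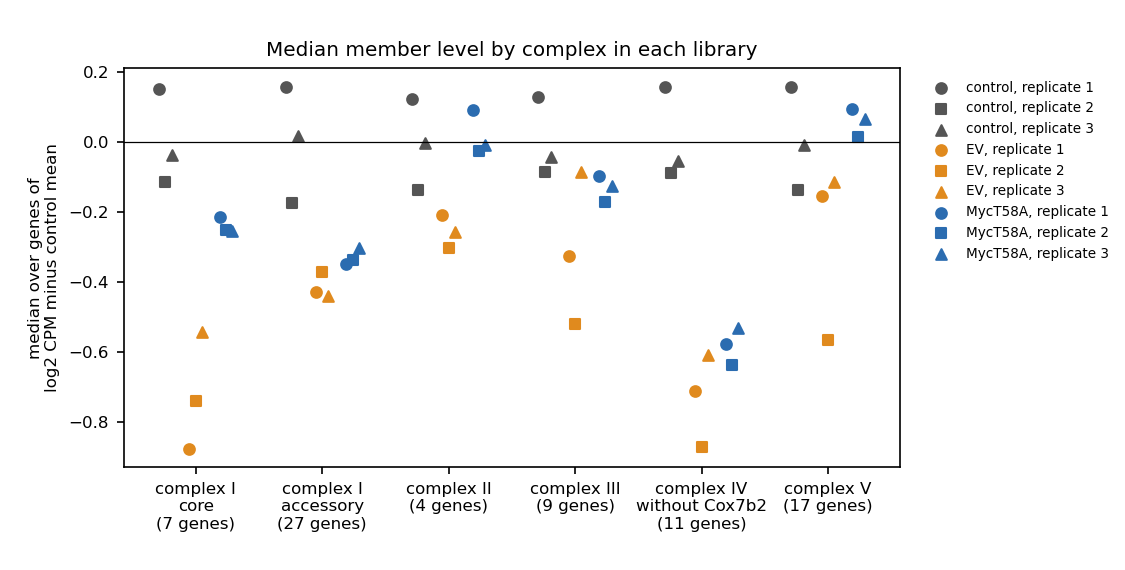
Median over the tested members of each complex of log2 CPM minus the mean of the controls (vertical axis), 1 point per library, coloured by group with a shape for each replicate. Complex IV, drawn without Cox7b2, lies from -0.87 to -0.53 in the tumour libraries. It is lowest in all of them but EV replicate 1, where the core of complex I is lower. The core of complex I lies from -0.88 to -0.54 in EV tumours and from -0.25 to -0.21 in MycT58A tumours. The tumour groups are also apart for its accessory subunits, complex II and complex V, and overlap for complexes III and IV.

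Other genes of the pathway were counted in the same way. Of 47 tested assembly factors, which build the complexes, 2 rose and 10 fell in EV tumours, and 12 rose and 9 fell in MycT58A tumours. These are 25.5% and 44.7% of the list, under the 57% and 62.2% of all genes, and the 25.5% that rose in MycT58A tumours was also under the 31.2% of all genes. Their median log2 fold changes were -0.07 and 0.16. Between the tumour groups 1 was higher in MycT58A tumours, 2.13% of the list beside 8.3% of all genes. That gene, Ndufaf5, an assembly factor that modifies a core subunit of complex I, read 36.4, 29.6 and 39.6 CPM in controls, 7.57, 8.96 and 13.4 CPM in EV tumours and 25.5, 20.3 and 24.6 CPM in MycT58A tumours (difference between EV and MycT58A 1.23 on the log2 scale, SE 0.27, edgeR adjusted p = 0.0315). The call ended without any 1 MycT58A library and with only those 2 groups in the fit. Nubpl, which delivers iron-sulfur clusters to complex I, rose by 2.14 and 2.36 (edgeR adjusted p = 0.000517 and 0.00027). Of 6 subunit genes that the symbol rule leaves out, 3 rose and 2 fell in EV tumours and 3 rose in MycT58A tumours. These are 83.3% and 50% called, beside 57% and 62.2% of all genes. Cox4i1, the widely expressed subunit IV, fell by 0.81 in EV tumours (SE 0.21, edgeR adjusted p = 0.0111), a call that ended with only the 2 groups compared in the fit. Cox7a2l, a factor of respiratory supercomplexes, rose by 0.73 and 0.96 (edgeR adjusted p = 0.0455 and 0.0135). Its call in MycT58A tumours ended without control replicate 2. Atpif1, the inhibitor of the ATP synthase, rose by 0.62 and 0.96 (edgeR adjusted p = 0.0242 and 0.00285). Ndufa4l2, a relative of Ndufa4, rose by 3.19 in EV tumours (SE 0.95, edgeR adjusted p = 0.0189), from 2.66, 1.77 and 2.19 CPM to 2.02, 11.6 and 47.2 CPM. That call ended without EV replicate 3, without any 1 control and with limma-voom.

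Of 18 genes of the citric acid cycle and pyruvate dehydrogenase, 2 rose and 7 fell in EV tumours (50% called, beside 57% of all genes), and 3 rose and 3 fell in MycT58A tumours (33.3%, beside 62.2%). Idh2 and Suclg2 were higher in MycT58A than in EV tumours, and both calls ended without any 1 MycT58A library and with only those groups in the fit. Idh2, the NADP-dependent isocitrate dehydrogenase of mitochondria, read 12.95, 19.1 and 17.9 CPM in controls, 149, 98.7 and 136 CPM in EV tumours and 288, 289.6 and 325 CPM in MycT58A tumours. Of 17 regulators of mitochondrial biogenesis 7 rose and 4 fell in EV tumours, 64.7% called beside 57% of all genes. The 41.2% that rose stood beside 30.7% of all genes, and the 23.5% that fell beside 26.3%. In MycT58A tumours 12 rose and 3 fell, 88.2% called beside 62.2% of all genes. There 70.6% rose beside 31.2% of all genes, and 17.6% fell beside 31%. Nrf1, the factor whose motif was searched for, rose 1.91-fold and 2.82-fold (edgeR adjusted p = 0.00164 and 0.00014), and Pprc1, a coactivator of the PGC family, rose by 1.99 and 3.13 (edgeR adjusted p = 0.00137 and 0.000154). Ppargc1a, the coactivator PGC-1 alpha, fell by 6.25 and 5.13 (edgeR adjusted p = 0.000534 and 0.000856), from 55.4 to 69.7 CPM in controls to at most 2.91 CPM in any tumour library. Esrra, a nuclear receptor that works with it, fell by 2.42 and 1.47 (edgeR adjusted p = 8.96e-05 and 0.000667). Esrra was higher in MycT58A than in EV tumours by 0.96 (SE 0.22, edgeR adjusted p = 0.0396), a call that ended without any 1 MycT58A library. It also ended with library size alone, without the low-count filter and with only those 2 groups in the fit. Of 20 carriers and genes of ubiquinone synthesis, 4 rose and 3 fell in EV tumours, and 6 rose and 1 fell in MycT58A tumours. This is 35% called in each, beside 57% and 62.2% of all genes. Between the tumour groups none of the 20 passed by edgeR, where 5 had an unadjusted p under 0.05, beside 4724 of all 15171 genes. DESeq2 called 2 higher and limma-voom 1. Coq8a and Pdss1, which serve ubiquinone synthesis, went in opposite directions: Coq8a fell by 1.74 and 1.86, and Pdss1 rose by 1.85 and 2.86 (edgeR adjusted p between 0.00027 and 0.00247).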

How the data were processed

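Whole-number counts per gene symbol for 9 RNA-seq libraries were deposited. The submitters' processing notes name bcl2fastq, TopHat, edgeR and mm10. In the sources used here, tool versions, read counter, annotation and strand setting are not given, so members that overlap another gene (33) or have near-identical copies (6, at 95% identity or more over at least 50% of the coding sequence, BLAST 2.17.0) are uncertain. Libraries were grouped by their labels and numbered in accession order, so replicates are unpaired. The controls are labelled cerebellum, though a protocol mentions cortex. Granule neuron markers were high in all 3.

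Genes were kept with filterByExpr (minimum count 10, total 15), which left 15171. The edgeR 4.0.16 quasi-likelihood test (R 4.3.3) was fitted on all 9 libraries with TMM scaling and 1 mean per group (6 residual degrees of freedom). Adjustment was by Benjamini and Hochberg across every tested gene, with a threshold of 0.05, and the SE is the log2 fold change over the root of F. A ratio with 1 to 3 counts in a group carries an exact 95% interval. Scripts were tested on simulated data. Positions and exon lengths are from GENCODE vM21 (78 members). Of 226 symbols on 17 lists of pathway genes and cell type markers 212 were found. Members and lists were chosen with earlier results of these data known.

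Values were to be given for the 3 largest changes past the threshold per complex and comparison, members past it between the tumour groups, tissue-restricted isoforms with their partners, the Sdh genes and members called against the majority of their complex, and for the genes of smallest p on each pathway list, of which some are left out. Single-gene values of some members and pathway genes are not reported here. Other named genes were chosen after their values were seen. Each result was recomputed with RLE scaling, with unscaled library sizes, without the low-count filter, on the 2 groups compared alone, with DESeq2 1.42.0, with limma-voom (limma 3.58.1) and without each library. Depth was 16631523 to 30410089 counts per library, and replicates differed beyond sampling noise. The chi-square per gene between 2 replicates was 32.3 to 38.5 in controls, 278 to 548 in EV tumours and 25.5 to 47.0 in MycT58A tumours. EV libraries thus spread far more than the others. The main fit estimated the spread of each gene over all 9 libraries, so p-values that involve EV tumours also draw on the smaller spread of the other groups.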

Additional observations from a re-analysis of the deposited data

Results flagged for a closer look

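The difference from control was not the same in both tumour groups for 3 members, by the edgeR test of MycT58A against EV tumours. They are 3.95% of the tested members, where 8.3% of all genes were called, and each call ended without any 1 MycT58A library. Ndufv1 differed by 0.95 (adjusted p = 0.0227), Ndufs8 by 0.75 (adjusted p = 0.0498) and Uqcrb by -0.81 (adjusted p = 0.0497, edgeR). In each case the 3 libraries of one tumour group lay wholly to one side of the other 3. Since the members were picked by the same comparison, this adds no support. Uncalled members, among them Atp5b, Cox8a and Ndufs1, were separated in the same way. In the same comparison 5 of 12 markers of microglia and macrophages and 2 of 9 of pericytes and fibroblasts were lower in MycT58A tumours by edgeR, and their part in these values was not tested.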

How the results depend on the processing

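All 66 called values of named genes kept their direction under every alternative run, and 41 of them also stayed past the threshold throughout. Members called higher and lower in EV tumours numbered 2 and 31, and 1 and 17 with only those groups in the fit, where 7005 of all genes were called. Leaving out 1 library gave 1 to 2 higher and 17 to 38 lower. In MycT58A tumours 4 rose and 25 fell, 2 rose with library size alone, and leaving out 1 library gave 2 higher and 15 to 21 lower. Between the tumour groups 2 were higher and 1 lower. There 1 was higher with RLE scaling, with library size alone and without the filter, 0 with only those groups and 7 with DESeq2. Lower were 2 with library size alone, 0 without the filter and with only those groups, and 3 with DESeq2. Of all genes DESeq2 called 3446 and the fit with only those groups 34, beside 1259 in the main fit. Leaving out 1 library gave 0 to 12 higher and 0 to 4 lower, with the most without EV replicate 3, where 3977 of all genes were called. The cause was not tested, though a left-out library also leaves fewer samples.

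Uncalled values that changed sign were as follows. Leaving out 1 library, Atp5g1 in EV tumours ranged from -0.40 to 0.041, Cox7a1 from -1.40 to 0.082 and Uqcrb from -0.042 to 0.21. Ndufs8 in MycT58A tumours was -0.010 with RLE scaling and DESeq2 and -0.045 with library size alone. Between the tumour groups, library size alone gave -0.041 for Cox6a1 and -0.040 for Cox6b1, and Cox6a1 ranged from -0.051 to 0.25 with 1 library left out. Cox7b there was -0.017 with RLE scaling and DESeq2, -0.11 with library size alone, -0.0090 without the filter, -0.0690 with only those groups and -0.16 to 0.28 with 1 library left out.

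Of the complex medians (mean over libraries), complex I in EV tumours moved from -0.48 to -0.44 with library size alone. In MycT58A tumours RLE scaling gave -0.35, -0.19, -0.72 and 0.0038 for complexes I, III, IV and V, and library size alone -0.39, -0.22, -0.76 and -0.035. Complex II turned from 0.019 to -0.074 with library size alone, and its median log2 fold change, given further up, changed sign with RLE scaling as well. Complex IV here includes Cox7b2. The median SE over members was 0.21 on the log2 scale in each comparison. No paired analysis was possible because the labels give no replicate numbers.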
